A study of Mus musculus with 6 samples.

Results

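The mitochondrial ribosome makes the few proteins that mitochondrial DNA encodes, all of them subunits of the respiratory chain and ATP synthase. Its RNAs come from mitochondrial DNA, but each of its proteins is encoded in the nucleus, translated in the cytosol and imported. Most of these nuclear genes carry Mrpl symbols for the large (39S) subunit, which holds the peptidyl transferase centre, or Mrps symbols for the small (28S) subunit, which decodes the mRNA. Part of the proteins descend from bacterial ribosomal proteins and part were added in the course of mitochondrial evolution.

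The genes described here are the protein-coding genes of the GENCODE M21 annotation (GRCm38) whose symbol is Mrpl or Mrps followed by a digit. The annotation holds 78 of them among the 35968 genes with a transcript in the data, 49 Mrpl and 29 Mrps. All 78 had at least 10 estimated counts in at least 3 libraries and all 78 were among the 13221 genes tested. Symbols do not always give the place of the protein: the Mrps30 and Mrps18a proteins sit in the large subunit, and the Mrps36 protein belongs to the oxoglutarate dehydrogenase complex. By place, the large subunit has 51 genes and the small subunit 26.

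The data are 6 RNA-seq libraries of MS-5, a mouse bone marrow stromal cell line. The MS-5 only group (MO1, MO2 and MO3) was cultured alone, and the MS-5 co-culture group (MC1, MC2 and MC3) was kept for 24 hr with SKM-1, a human acute myeloid leukaemia line, at 4 SKM-1 cells per stromal cell and 750000 SKM-1 cells per ml, and then separated from it. The labels name no genetic change or drug in either group, and the comparison rests on 1 stromal and 1 leukaemic line. The sources do not say that the libraries of a group came from separate cultures, so p-values measure the spread between these libraries, which may be technical.

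Total estimated counts lay between 23978881 and 35694987 per library. MO2 and MC3 stood apart from the other 4 libraries: genes of mitochondrial DNA took 6.07% and 5.92% of their counts against 10.6% to 13.2%, and 65170 and 66456 transcripts had a count against 51533 to 57350. In MS-5 cells the stromal markers Col1a1, Sparc and Cxcl12 were abundant and 0 of the 11 stromal markers tested were called (edgeR, adjusted p under 0.1), while Thy1 was low in both groups and Nt5e, at 0 to 3 counts a library, was not tested. With a term for MO2 and MC3 in the fit, Acta2 was called lower (log2 fold change -0.92) and Pdgfra (0.69) and Pdgfrb (0.28) higher, and without both libraries Acta2 and Pdgfra were called in the same directions. Of 14 leukocyte markers, 11 were tested and 7 were called higher in co-culture, against 3.71% of all genes tested. Summed over the list, the leukocyte markers reached 20.8 to 38.3 CPM (counts scaled to a common library size with TMM factors) in MS-5 only, against 60.1 to 265 in co-culture, most in MC2. Most of the MS-5 only sum came from Lyz2 (16.8, 21.7 and 30.4 CPM) and Cd53 (2.75, 4.42 and 6.66 CPM). These 2 had negative log2 fold changes, -0.37 and -0.11, and the other 9 markers tested had positive ones. Of the markers tested, Irf8 was at 0 in every MS-5 only library. MC2 was the highest co-culture library in 22 of the 78 mitoribosomal genes (28.2%), against 32% of all genes tested. The part of leukaemic RNA in the values below was not tested.

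Transcripts of mitochondrial ribosomal protein genes summed to a lower TPM in MS-5 cells from co-culture than in MS-5 cells cultured alone. TPM is a share of all transcripts after division by length, and the TPM values of the 78 genes summed to 6335, 5717 and 5713 in MO1, MO2 and MO3 and to 5094, 4608 and 5003 in MC1, MC2 and MC3. Every co-culture library lay below every MS-5 only library in TPM. The groups overlapped in the share of estimated counts, which was 0.396%, 0.3005% and 0.360% in MS-5 only, against 0.314%, 0.298% and 0.261% in co-culture, and in summed TMM-normalized CPM, at 4278, 2580 and 3899 in MS-5 only, compared with 3402, 3236 and 2225 in co-culture. On both scales MC1 lay above MO2. The mean was 5922 ± 358 TPM in MS-5 only, against 4901 ± 258 TPM in co-culture (SD, n = 3 each), a difference of -17.2% in TPM. Fewer cells of a type and less RNA per cell cannot be told apart in bulk samples such as these, nor can a smaller share and a larger pool of other RNAs.

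The large and the small subunit were lower by nearly the same proportion. Large-subunit genes summed to 4276, 3853 and 3904 TPM in MS-5 only, as opposed to 3464, 3171 and 3399 TPM in co-culture, a difference of -16.6%. Small-subunit genes summed to 2060, 1864 and 1809 TPM in MS-5 only, compared with 1630, 1437 and 1604 TPM in co-culture, a difference of -18.5%. The groups did not overlap for either subunit. The ratio of large to small was 2.08, 2.07 and 2.16 in MS-5 only, against 2.13, 2.21 and 2.12 in co-culture, so the groups overlapped in this ratio, whose means were 2.10 ± 0.0507 and 2.15 ± 0.0485 (SD, n = 3 each). With Mrps30 and Mrps18a counted in the large subunit and Mrps36 in neither, the differences were -16.8% and -18.5%.

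**Figure D1:**
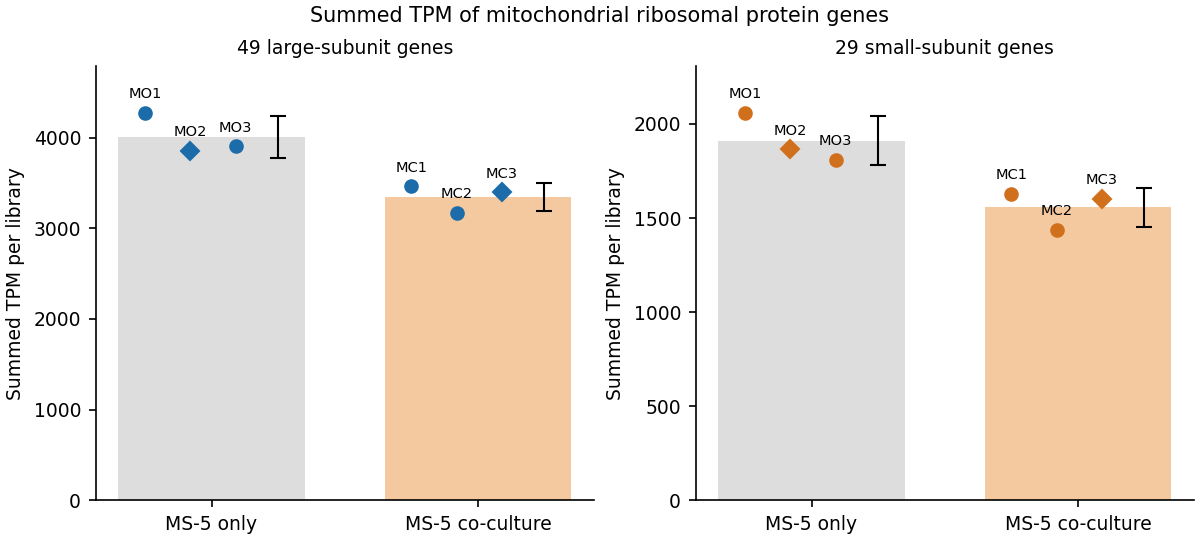
Summed TPM per library of the 49 large-subunit genes (left) and the 29 small-subunit genes (right). Bars are group means, error bars the SD of 3 libraries, points single libraries and diamonds MO2 and MC3; in each panel all MS-5 only libraries lie above all co-culture libraries, with large-subunit values of 3853 to 4276 against 3171 to 3464.

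Gene by gene, the 78 genes were tested in counts normalized by edgeR's TMM method, with the quasi-likelihood test over all 13221 genes. The log2 fold change, co-culture over MS-5 only, was negative in 73 of the 78 genes, against 52.5% of all genes tested. Its median was -0.30 over the 78 genes, -0.28 over the large and -0.30 over the small subunit, where the median of all genes was -0.02. It was negative in 44 of 49 large-subunit and in 29 of 29 small-subunit genes, and it ranged from -0.72 for Mrps22 to 0.10 for Mrpl27. The median was -0.15 without MO1 or without MC3, and -0.47 without MO2.

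None of these genes passed the threshold of an adjusted p-value under 0.1 in edgeR. Over all genes tested, 4.38% were called, made up of 0.666% that were lower and 3.71% that were higher in co-culture. The lowest adjusted p-value among the 78 genes was 0.188, that of Mrpl41. An unadjusted p-value under 0.05 was reached by 6 genes, all lower in co-culture, while 5.63% of all genes reached it in that direction, and DESeq2's Wald test called 1 of the 78 genes, Mrpl41, where it called 2.71% of all genes lower. Without TMM factors edgeR called 2, Mrpl41 and Mrpl16, against 0.771% of all genes lower. A single gene compared between 3 and 3 libraries cannot have an exact two-sided permutation p-value below 0.1. With TMM, CPM values of the groups did not overlap in 7 genes (8.97%), all lower in co-culture, while 9.6% of all genes tested were lower and 11.6% higher without overlap. Without MO2 it was 63 genes, against 24.2% of all genes, and without MC1 14 genes, against 12.4%. It was 9 genes without MC2, against 12.4%, and 7 without MO1, MO3 or MC3, against 12%, 12.3% and 15.7%.

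The spread behind these tests was shared by nearly all the genes. In 75 of the 78 (96.2%) MO2 was the lowest of the MS-5 only libraries and MC3 the lowest of the co-culture libraries in CPM, as it was in 36.9% of all genes tested. The exceptions were Mrps9, Mrpl24 and Mrpl27. All 13 protein genes of mitochondrial DNA were also lowest in MO2 and MC3. The median standard error of the 78 log2 fold changes was 0.26.

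The number of genes without overlap depended on the scaling. In TPM, 36 of the 78 genes (46.2%) were lower in co-culture without overlap between the groups and 0 were higher, against 7.53% and 7.68% of all genes tested. The 36 genes were 23 of 49 large-subunit and 13 of 29 small-subunit genes. In CPM scaled by library size alone, without TMM factors, 29 genes were lower without overlap and 0 higher, against 11.7% and 10.1% of all genes tested, and 21 of the 29 were among the 36. When TPM values were summed over protein-coding transcripts only, 42 genes were lower without overlap, against 9.37% of all genes, and 0 were higher, against 5.23%. Only Mrpl41 and Mrpl16 were without overlap both in TMM-normalized CPM and in TPM.

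A fit with an added term, which set MO2 and MC3 apart from the other 4 libraries, left the log2 fold changes almost as they were, with a median of -0.29, and lowered their median standard error to 0.089. With this term 43 of the 78 genes (55.1%) had an adjusted p-value under 0.1 in edgeR's test and were lower in co-culture, and 0 were higher. Of all genes tested, 16.4% were called lower and 13.9% higher in that fit. The 43 genes were 26 of 49 in the large and 17 of 29 in the small subunit, their log2 fold changes lay between -0.70 and -0.24, and 31 of them were among the 36 genes without overlap in TPM. With MO2 and MC3 left out, 13 genes were called lower and 0 higher, against 4.6% and 7.92% of all genes, and all 13 were among the 43. The pattern of MO2 and MC3 was taken from the libraries themselves, and neither the labels nor the methods name a batch.

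**Figure D2:**
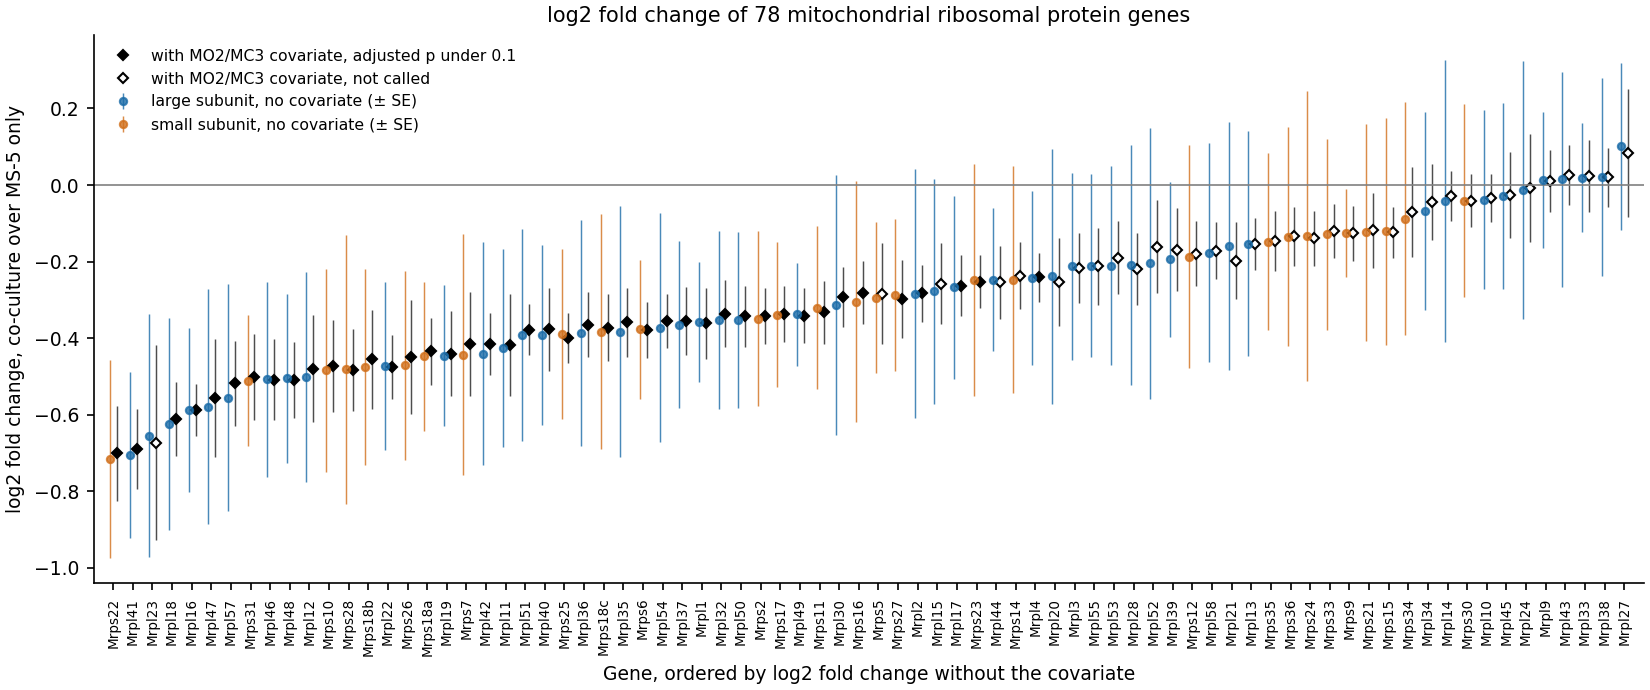
log2 fold change of the 78 genes, co-culture over MS-5 only, ordered along the horizontal axis. Circles are estimates without a covariate (blue large, orange small subunit) and diamonds those with a term for MO2 and MC3, filled where the adjusted p-value was under 0.1; bars are standard errors. Circles run from -0.72 to 0.10, and 43 diamonds are filled.

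The 2 kinds of library could also be compared separately. MC3 lay below MO2 in 70 of the 78 genes, against 55.8% of all genes tested, and the median log2 ratio was -0.24. MC1 and MC2 both lay below MO1 and MO3 in 63 genes, against 30.4% of all genes, and the median log2 ratio of their means was -0.32. Both held in 59 genes (75.6%), against 27.8% of all genes, and the reverse in 0 genes, against 24.5%. All 43 genes called with the covariate were among the 59. MC3 was above MO2 in Mrpl52, Mrpl39, Mrps34, Mrpl34, Mrpl14, Mrpl43, Mrpl33 and Mrpl38.

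**Figure D3:**
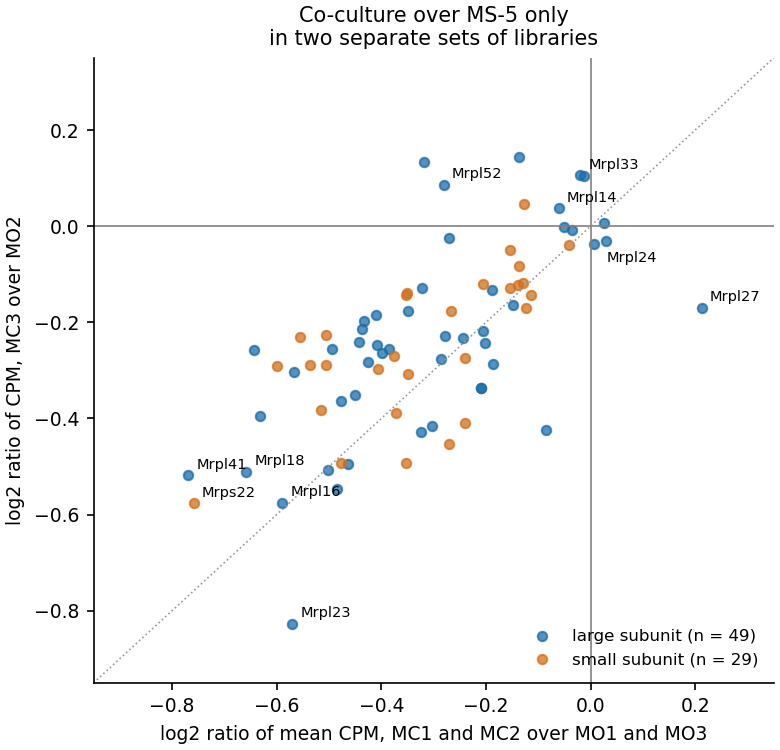
Each point is 1 of the 78 genes, with the log2 ratio of MC1 and MC2 over MO1 and MO3 on the horizontal axis and that of MC3 over MO2 on the vertical axis, both from CPM. The axes share no library, the dotted line marks equal ratios, and 70 points lie below 0 on the vertical axis; Mrpl33, Mrpl14 and Mrpl24 lie near 0 on both axes.

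The members with the most negative values came from both subunits. Mrps22 encodes a small-subunit protein without a bacterial counterpart, and lies on chromosome 9 from 98588730 to 98601660. It had the most negative log2 fold change of the 78 genes and is named for that reason, although its CPM groups overlapped: CPM was 29.9, 17.2 and 24.7 in MO1, MO2 and MO3 and 17.6, 14.6 and 11.5 in MC1, MC2 and MC3. MC1 lay just above MO2. Its TPM values, 31.7, 27.7 and 25.5 in MS-5 only, as opposed to 18.8, 14.7 and 18.6 in co-culture, did not overlap. The log2 fold change was -0.72 ± 0.26 (SE; edgeR adjusted p = 0.267) and, with the term for MO2 and MC3, -0.70 ± 0.12 (adjusted p = 0.0181).

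Mrpl41 encodes a large-subunit protein added in mitochondrial evolution, from chromosome 2, 24974117 to 24975098. Its TPM was 43.7, 48.8 and 49.7 in MO1, MO2 and MO3 and 27.9, 25.9 and 34.1 in MC1, MC2 and MC3. The groups were separate in TPM, and also in CPM, where MS-5 only lay between 17.1 and 27.6 and co-culture between 11.9 and 15.2. The log2 fold change was -0.71 ± 0.22 (SE; edgeR adjusted p = 0.188), and -0.69 ± 0.10 with the term (adjusted p = 0.0151).

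Mrpl16, a large-subunit protein with a bacterial counterpart, is encoded on chromosome 19 from 11770391 to 11774960. Its TPM was 47.4, 50.6 and 45.7 in MS-5 only, compared with 30.5, 30.7 and 33.9 in co-culture. In TPM the libraries within each group lay close together and the groups far apart. The means were 47.9 ± 2.44 and 31.7 ± 1.88 TPM (SD, n = 3 each). In CPM, on which the fold change rests, the groups did not overlap, but MO2 lay only just above MC2. CPM was 43.1, 30.01 and 42.7 in MO1, MO2 and MO3 and 27.7, 29.2 and 20.1 in MC1, MC2 and MC3. In edgeR the log2 fold change was -0.59 ± 0.22 (SE; adjusted p = 0.275), and with the term it had the lowest adjusted p-value of the 78 genes, 0.0110.

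The other genes whose CPM values did not overlap were Mrps31, Mrpl19, Mrpl1, Mrpl49 and Mrps9. CPM of Mrps31, a small-subunit protein without a bacterial counterpart, was 14.4, 10.7 and 13.6 in MS-5 only, against 9.15, 9.26 and 8.70 in co-culture, with a log2 fold change of -0.51 ± 0.17 (SE). For Mrpl19 and Mrpl1, which have bacterial counterparts, the log2 fold changes were -0.45 and -0.36, and for Mrpl49 -0.34. That of Mrpl19 was -0.27 without MO1. These 4 genes overlapped between groups in TPM and were called lower with the term for MO2 and MC3. Mrps9, with the smallest difference of the 7, had 34.5, 32.5 and 31.6 CPM in MS-5 only, as opposed to 30.6, 29.87 and 29.95 in co-culture. The log2 fold change was -0.13 ± 0.11 (SE; edgeR adjusted p = 0.740), and it was not called with the term (adjusted p = 0.262).

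Mrps18a, Mrps18b and Mrps18c are paralogs related to the same bacterial protein, of which Mrps18c is counted here as its counterpart and the others are counted among the genes without one; the products of the latter 2 sit in the small subunit and that of Mrps18a in the large one. Mrps18a had 97.0, 96.5 and 82.7 TPM in MS-5 only, compared with 66.1, 58.7 and 79.2 TPM in co-culture. Mrps18b had 104, 92.1 and 77.8 TPM in MS-5 only, against 68.4, 56.5 and 75.3 TPM in co-culture. Mrps18c had 91.4, 72.4 and 75.8 TPM in MS-5 only, as opposed to 63.7, 61.0 and 59.9 TPM in co-culture. In TPM all 3 were lower in every co-culture library, although MC3 came within a few TPM of MO3 for Mrps18a and Mrps18b. In CPM, on which the fold changes rest, the groups of all 3 overlapped, since MC1 lay above MO2 (42.4 against 40.7 for Mrps18a, 53.9 against 45.0 for Mrps18b and 25.9 against 19.1 for Mrps18c). Their log2 fold changes were -0.45, -0.48 and -0.38 without the term, where none was called, and -0.43 ± 0.087, -0.46 ± 0.13 and -0.37 ± 0.088 (SE) with it, where each passed (edgeR adjusted p = 0.0234, 0.0552 and 0.0338). Without the term, single libraries moved these values: they were -0.30, -0.23 and -0.17 without MO1, and -0.60, -0.67 and -0.61 without MO2, and that of Mrps18c was -0.18 without MC3.

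The other genes whose symbol and place differ had smaller values. Mrps30 was measured at 11.8, 11.5 and 10.97 TPM in MS-5 only, compared with 11.4, 10.6 and 11.3 TPM in co-culture, and the groups overlapped. Its log2 fold change was -0.04 ± 0.25 (SE) without and -0.04 ± 0.069 with the term. It shares 623 exon bases with B430218F22Rik on the other strand. Mrps36 had 64.2, 60.0 and 64.3 TPM in MS-5 only, against 60.6, 52.5 and 54.9 TPM in co-culture, where MC1 lay just above MO2, and a log2 fold change of -0.14 ± 0.29 (SE), not called in either fit.

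**Figure D4:**
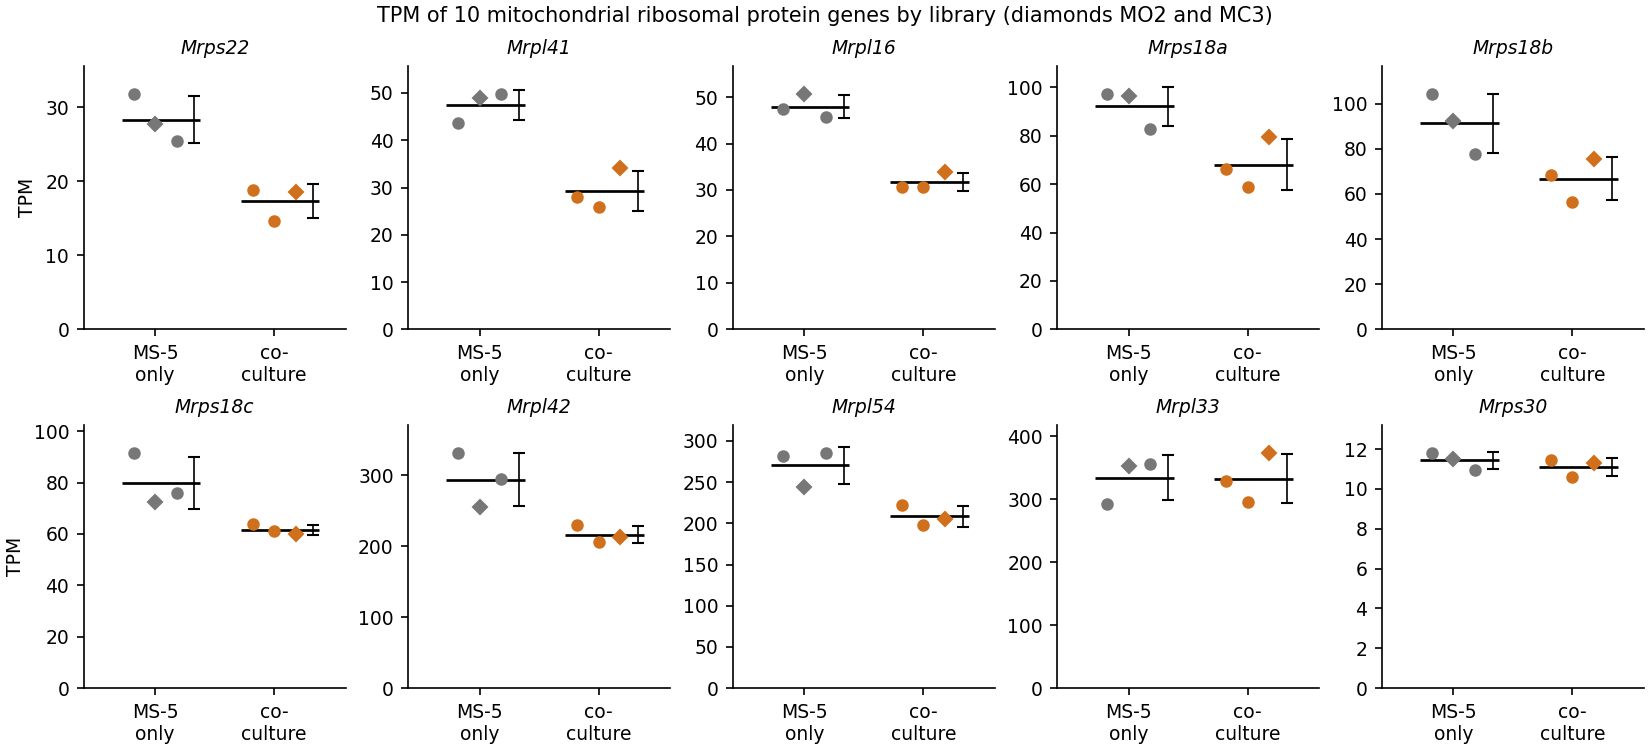
TPM by library (grey MS-5 only, orange co-culture, diamonds MO2 and MC3) for 10 of the genes described, with the group mean as a line and the SD of 3 libraries as an error bar. The first 8 genes do not overlap between groups, with Mrps22 at 25.5 to 31.7 against 14.7 to 18.8 TPM, while Mrpl33 and Mrps30 overlap.

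Levels differed widely within the family, although the ribosome holds most of its proteins in equal numbers. Mean TPM over the 6 libraries ran from 7.85 for Mrpl1 to 333 for Mrpl33, with a median of 56.3. Mrpl33, a small protein with a bacterial counterpart, had 292, 353 and 356 TPM in MS-5 only, as opposed to 329, 296 and 373 TPM in co-culture. These groups overlapped widely and the log2 fold change was 0.02 ± 0.14 (SE). Next in level were Mrpl42, Mrpl52, Mrpl54 and Mrpl14.

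Mrpl42, Mrpl52 and Mrpl54 encode large-subunit proteins without bacterial counterparts. Mrpl42 had 331, 256 and 295 TPM in MS-5 only, compared with 230, 206 and 212 TPM in co-culture, and Mrpl54 282, 244 and 285 TPM in MS-5 only, against 223, 198 and 205 TPM in co-culture. Neither overlapped between the groups in TPM, but both did in CPM, on which the fold changes rest. Both were called lower with the term for MO2 and MC3, with log2 fold changes of -0.42 ± 0.081 and -0.36 ± 0.070 (SE, edgeR adjusted p = 0.0216 and 0.0223). Without the term they were -0.44 and -0.37, and there they were -0.25 and -0.25 without MO1, -0.26 and -0.18 without MC3, and -0.68 and -0.61 without MO2, while Mrpl54 was -0.22 without MO3. Mrpl52 had 324, 209 and 257 TPM in MS-5 only, as opposed to 252, 209 and 217 TPM in co-culture, which overlapped, and was not called. The means of these 3 genes over the 6 libraries, 255, 245 and 239 TPM, are closer together than the libraries of any of them. Mrpl14, which has a bacterial counterpart, had a mean of 173 ± 29.6 TPM in MS-5 only, against 167 ± 18.2 TPM in co-culture (SD, n = 3 each).

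At the low end were Mrps30, Mrpl48, Mrpl24, Mrps31 and Mrpl1. Mrpl48 had 11.8, 13.1 and 13.2 TPM in MS-5 only, compared with 10.05, 7.39 and 8.35 TPM in co-culture, without overlap. In CPM its groups overlapped, since MC1 (10.7) lay above MO2 (10.5). Mrpl48 was called lower with the term (log2 fold change -0.51 ± 0.10 SE, edgeR adjusted p = 0.0219). Mrpl1 had 8.88, 10.3 and 7.31 TPM in MS-5 only, against 6.33, 6.70 and 7.58 TPM in co-culture, so that MC3 lay above MO3. Mrpl24, which lies at the exit tunnel, had 5.27, 18.4 and 6.48 TPM in MS-5 only, as opposed to 6.40, 5.70 and 18.7 TPM in co-culture. MO2 and MC3 were the 2 high libraries there, against the direction of nearly all other members, and its log2 fold change was -0.01 ± 0.34 (SE).

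The values of MO2 and MC3 also differed within genes, by transcript. The 78 genes have 343 transcripts in the data, of which 88 in 48 genes are annotated as retained intron. These took 6.33% and 6.38% of the 78 genes' counts in MO2 and MC3 and 3.72% to 4.37% in the other 4 libraries. In 28 of the 48 genes the retained-intron counts, not scaled by library size, were higher in both MO2 and MC3 than in any other library. The same share and count over all genes were not computed, so these values cannot be read as particular to the 78 genes. For Mrpl33 the retained-intron transcript 203 had 501 and 617 estimated counts in MO2 and MC3 and 50.5 to 75.9 elsewhere, and for Mrpl24 the transcript 206 had 60.0 and 58.0 against 1.02 to 4.00. Between the groups the share overlapped, at 4.37%, 6.33% and 3.77% in MS-5 only, against 3.72%, 3.84% and 6.38% in co-culture.

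**Figure D5:**
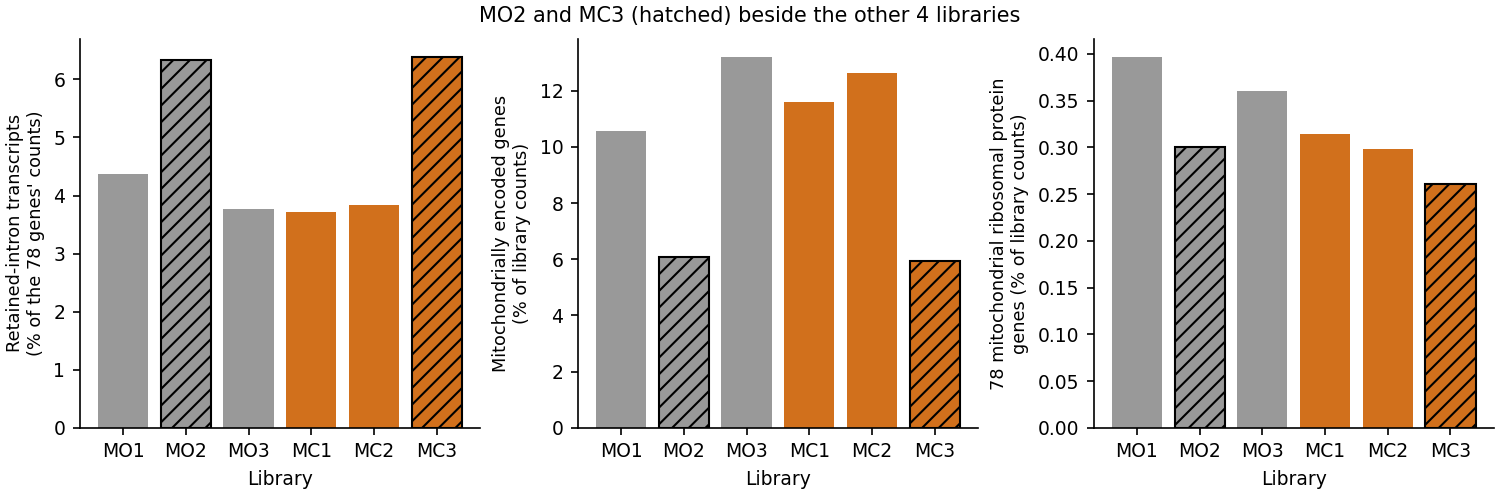
For each library, the share of the 78 genes' counts on retained-intron transcripts, the share of library counts on genes of mitochondrial DNA, and the share on the 78 genes, in percent (grey MS-5 only, orange co-culture, MO2 and MC3 hatched). MO2 and MC3 have retained-intron shares of 6.33% and 6.38% and mitochondrial shares of 6.07% and 5.92%, and within each group they have the lowest share on the 78 genes.

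Genes were also grouped by structural region of the ribosome. The calls with the term for MO2 and MC3 stand beside 16.4% of all genes called lower in that fit. The 3 stalk genes, whose proteins recruit translation factors, were Mrpl12, Mrpl11 and Mrpl10, with log2 fold changes of -0.50, -0.43 and -0.04, of which the first 2 were called lower with the term. The 6 genes at the exit tunnel ranged from -0.65 for Mrpl23 to -0.01 for Mrpl24, and 2 of the 6, Mrpl22 and Mrpl17, were called with the term. The 4 genes at the decoding and tRNA sites, Mrps7, Mrps11, Mrps5 and Mrps12, ranged from -0.44 to -0.19, and Mrps7 and Mrps11 were called with it. The 46 genes with a bacterial counterpart had a median of -0.29 and the 32 without one a median of -0.35, with 24 and 19 called lower with the term.

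Some of these values rest on reads that the counting could have shared out. Mrpl23 had 107 to 205 estimated counts per library, while its processed pseudogene Mrpl23-ps1 was assigned 493 to 1056. The 2 together came to 34.5, 24.8 and 37.4 CPM scaled by library size in MS-5 only, compared with 32.9, 28.3 and 22.8 in co-culture, which overlap, so the value of Mrpl23 is uncertain. Mrpl48 had 234 to 355 counts and Mrpl48-ps 54 to 106. Of the 78 genes, 23 share exon bases with another gene, 4 on the same and 20 on the opposite strand, Mrpl47 with Actl6a and Ndufb5 for example. The strand setting of the counting is not given in the sources used here, so reads of such partners may not have been told apart. Mrps11 and Mrpl46, which start head to head on chromosome 7 and share 173 exon bases, had log2 fold changes of -0.32 and -0.51, and each was called lower with the term (edgeR adjusted p = 0.0396 and 0.0256).

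The start regions of the genes were read for motifs that are known from promoters of this kind: the ETS core bound by GABP (CCGGAAG), the NRF1 half-site pair (GCATGCGC) and the YY1 motif (AAGATGGCG). Each was searched on both strands in the 300 bases from 250 before to 50 after the RefSeq start (GRCm38.p6), in which 69 of the 78 genes had an entry. The NRF1 letters are close to their own reverse complement, so matches on the strands can overlap. These 69 genes have 75 windows, since Mrpl48, Mrpl2 and Mrps16 have several starts, and a gene was counted where any of its windows held the letters. Several windows were present for 4.35% of the 69 genes and for 15.4% of all genes. The ETS letters were found in 26 of the 69 genes (37.7%), against 9.93% of all genes with an entry and 12.9% of the protein-coding ones. Mrpl48 and Mrps16 hold them in 1 of their windows. The NRF1 letters were in 8 (11.6%), against 3.05% and 3.94%, and the YY1 letters in 8 (11.6%), against 1.64% and 2.14%. At least 1 of the 3 motifs was found in 36 genes and more than 1 in 6.

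A set of 6 windows from 120 bases before to 30 after the start is shown, on the strand of the gene and 5′ to 3′, with matches in capitals: those of the genes with the most negative values, of the most abundant gene, and of 3 genes with several matches that were lower in TPM without overlap. Mrps22 (chr9:98601650-98601799, minus strand) holds the ETS letters, and the window of Mrpl41 (chr2:24975069-24975218, minus strand) none of the 3 motifs. Mrpl33 (chr5:31613831-31613980, plus strand) holds the ETS and NRF1 letters, as Mrpl22 does (chr11:58171544-58171693, plus strand). Mrps18a (chr17:46110884-46111033, plus strand) holds the ETS and YY1 letters, and Mrpl32 (chr13:14613008-14613157, minus strand) repeats of the NRF1 letters.
Mrps22: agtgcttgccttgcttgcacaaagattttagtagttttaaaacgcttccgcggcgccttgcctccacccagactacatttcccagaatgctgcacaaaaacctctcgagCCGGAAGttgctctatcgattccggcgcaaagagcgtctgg
Mrpl41: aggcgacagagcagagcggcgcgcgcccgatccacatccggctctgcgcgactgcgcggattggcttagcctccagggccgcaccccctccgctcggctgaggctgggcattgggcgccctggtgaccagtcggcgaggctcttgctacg
Mrpl33: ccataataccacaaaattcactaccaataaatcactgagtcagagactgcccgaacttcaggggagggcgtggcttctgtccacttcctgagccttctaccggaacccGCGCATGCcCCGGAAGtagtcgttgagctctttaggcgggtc
Mrpl22: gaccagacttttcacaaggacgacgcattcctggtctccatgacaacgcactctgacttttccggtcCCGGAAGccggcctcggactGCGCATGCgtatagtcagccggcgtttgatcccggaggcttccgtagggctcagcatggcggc
Mrps18a: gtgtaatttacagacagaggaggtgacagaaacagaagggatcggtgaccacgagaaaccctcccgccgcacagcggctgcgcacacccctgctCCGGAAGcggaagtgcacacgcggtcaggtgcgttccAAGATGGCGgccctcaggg
Mrpl32: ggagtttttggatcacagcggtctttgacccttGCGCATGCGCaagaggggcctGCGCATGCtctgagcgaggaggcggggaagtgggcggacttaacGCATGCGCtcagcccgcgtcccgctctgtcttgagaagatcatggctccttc

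Values overlapped widely between genes with and without a motif. The median log2 fold change was -0.26 in the 26 genes with the ETS letters and -0.34 in the 43 without, -0.23 in the 8 with and -0.32 in the 61 without the NRF1 letters, and -0.37 in the 8 with and -0.29 in the 61 without the YY1 letters. The share of genes lower in TPM without overlap was 53.8% with and 41.9% without the ETS letters, 50% and 45.9% for NRF1, and 62.5% and 44.3% for YY1, so for ETS and NRF1 the order was the opposite of that of the medians. Mrpl22, with 58.6, 62.0 and 52.6 TPM in MS-5 only, against 42.0, 37.8 and 43.9 TPM in co-culture, and Mrpl33, whose groups overlapped, hold the same motifs. These matches describe the letters of the windows and not binding.

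Among regulators of these genes, Gabpa (the ETS-binding subunit of GABP) and Nrf1 had log2 fold changes of -0.05 ± 0.11 and -0.14 ± 0.13 (SE), and neither was called in either fit. Gabpb1, the other GABP subunit, was called lower with the term for MO2 and MC3 (-0.29 ± 0.097 SE; edgeR adjusted p = 0.0858), as was Pprc1, a coactivator of NRF1 (-0.48 ± 0.15 SE; adjusted p = 0.0734). Yy1 had 70.3, 66.5 and 68.1 CPM in MS-5 only, as opposed to 88.6, 89.3 and 80.0 CPM in co-culture, without overlap. The log2 fold change was 0.33 ± 0.11 (SE; edgeR adjusted p = 0.242), and it was called higher with the term (adjusted p = 0.0198). The largest values of this list were those of Pprc1 and Myc (0.45 without the term). Of the 8 genes tested, 0 were called without the term, and 2 were called lower and 1 higher with it, against 16.4% and 13.9% of all genes.

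Other genes of mitochondrial translation were counted from lists, again by edgeR's test. Of 26 genes of mitoribosome assembly and rRNA modification 2 fell in co-culture, against 0.666% of all genes tested. Fastkd2, which binds mitochondrial RNAs and is needed for assembly of the large subunit, had 19.4, 14.6 and 17.7 CPM in MS-5 only, compared with 10.7, 10.01 and 9.43 CPM in co-culture, which gave a log2 fold change of -0.77 ± 0.17 (SE; adjusted p = 0.0865). Gtpbp10, a GTPase of large-subunit assembly, had 16.3, 13.2 and 15.0 CPM in MS-5 only, against 8.24, 8.10 and 10.2 CPM in co-culture, which gave a log2 fold change of -0.74 ± 0.17 (SE; adjusted p = 0.0946). The groups of both were well separated, and both calls were lost when any 1 library was left out, though not when MO2 and MC3 were left out together (adjusted p = 0.075 for both). With the term for MO2 and MC3, 10 of the 26 (38.5%) were called lower and 0 higher, against 16.4% and 13.9% of all genes, Rcc1l (-0.70 in that fit) among them.

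In the 3 other lists of mitochondrial translation 0 genes were called without the term. Of 20 genes of mitochondrial aminoacyl-tRNA synthesis, 5 (25%) were called lower with the term, against 16.4% of all genes, with Qrsl1, a subunit of the amidotransferase that makes glutaminyl-tRNA (-0.72 ± 0.17 SE without the term, adjusted p = 0.108), and the methionyl-tRNA synthetase Mars2 (-0.61 without it) at the largest values. Of 16 translation factors and mRNA-handling proteins tested, 3 (18.8%) were called lower with it, a share near the 16.4% of all genes: the elongation factor Gfm1, Lrpprc and Slirp. The largest values of that list were those of Lrpprc and Pdf (-0.43 without the term for both). Of 5 mitoribosomal proteins with other symbols, 4 were called lower with the term, Ptcd3 (-0.41 in that fit) and Chchd1 (-0.29) with the largest values, and Dap3 (-0.05) was not.

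The messages that the ribosome translates lay on either side of 0. The 13 protein genes of mitochondrial DNA had a median log2 fold change of -0.0039, with 7 negative values, between -0.13 ± 0.77 for mt-Nd3 and 0.13 ± 0.68 for mt-Co1 (SE), and 0 of the 13 were called in either fit. The standard errors ran from 0.30 for mt-Atp8 to 0.77 for mt-Nd3 without the term, so a difference the size of the mitoribosomal median was not detectable in that fit. With the term their median standard error was 0.11 and their median log2 fold change -0.0145. Among 8 genes of mitochondrial DNA transcription and replication, Tfam (-0.24 with the term) and Tfb2m (-0.30) were called lower in that fit, again beside 16.4% of all genes. The 81 cytosolic ribosomal protein genes had a median of -0.07, with 62 negative values. Without overlap in TPM 0 of the 81 were lower and 3 higher (Rpl10l, Rpl29 and Rps7), against 36 and 0 of the 78 mitoribosomal genes. With the term 3 were called lower and the same 3 as above higher, against 43 and 0 of the 78. Only Rpl10l was called without the term, higher in co-culture, at 0.0399, 0.0637 and 0.0453 CPM in MS-5 only, as opposed to 2.44, 16.3 and 2.30 CPM in co-culture (edgeR adjusted p = 0.0734), and like the leukocyte markers it was highest in MC2. These genes were named after their values were seen. The cytosolic genes too were lowest in MO2 and MC3, in 77 of the 81, in CPM.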

How the data were processed

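RNA-seq of 3 MS-5 only and 3 co-culture libraries was analysed, grouped by the sample labels. The authors quantified reads with kallisto (version 0.43.0 per the labels; FastQC 0.11.7 and sleuth 0.30.0 are also named) against mouse transcripts (mm10, which is GRCm38) and deposited, for each of 118489 transcripts, an estimated count, a TPM value, and a length and effective length in bases. The deposited estimated counts were not normalized between libraries; the authors' TPM values are length-corrected and sum to 1 fixed total per library, so a gene's TPM is a share and depends on all other RNA. In the whole series, 116728 transcripts matched GENCODE M21 by identifier and length, and the other 1761, with 0.476% to 0.562% of a library's counts, were left out.

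Counts and TPM were summed per gene; counts were rounded. EdgeR 4.0.16 (R 4.3.3) was run with filterByExpr (13221 of 35968 genes kept), TMM factors of 0.923 to 1.17 and its quasi-likelihood F test. P-values were adjusted by Benjamini-Hochberg over every gene tested, and 0.1 was the threshold. The SE is the log2 fold change over the square root of F. Sleuth was not used here. CPM values are TMM-normalized unless stated. All 78 members passed the filter of 10 counts in 3 libraries. Whether depth or the spread between libraries limits the precision was not tested. The script was tested on simulated data.

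Alternatives were DESeq2 1.42.0 size factors or Wald test, library size alone, limma 3.58.1 on log2 TPM after adding 0.5, 0.1 or 1, other gene filters, an effective length offset, a replicate block, the MO2 and MC3 term, leaving out each library, and thresholds of 0.05 and 0.01. Leaving out MO2 and MC3 together, and TPM in place of CPM for overlap, were added after the values were seen. The MO2 and MC3 term was also defined from the values, since no label sets these libraries apart. Calls made with it rest on a split taken from these same data.

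The members, the lists and the motifs were chosen with earlier results of these data known. Genes named are the members past the threshold, the 6 most negative and 6 most positive without overlap in CPM, the 5 highest and 5 lowest in TPM, the Mrps18 paralogs, Mrps30 and Mrps36, members grouped by structural region, and for each list the called genes and the 2 largest changes. Genes outside this rule, such as Mrps22, Mrps9, Mrpl22 and Yy1, were named after their values were seen. Promoter sequences are from RefSeq. Protein sequences were not used here.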

Additional observations from a re-analysis of the deposited data

How the results depend on the processing

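The direction of the median over the 78 genes held under all settings run, whereas calls did not. No gene was called under DESeq2's size factors, the other gene filters, an effective length offset, limma on log2(TPM + 0.5), thresholds of 0.05 and 0.01, or without any single library (0 to 0). The Wald test of DESeq2 called 1 and library size alone 2 genes, against 43 with the term for MO2 and MC3 and 13 without both libraries. The cause was not tested. The median log2 fold change stayed between -0.31 and -0.29 under every setting that kept all libraries. With 1 library left out it lay between -0.47 (without MO2) and -0.15 (without MO1, with 64 negative values; also without MC3, with 54). It was -0.49 to -0.14 for the large and -0.47 to -0.15 for the small subunit. Genes without overlap, 7 with TMM, were 29 with library size alone, 36 in TPM, and 7 to 63 with 1 library left out, the 63 without MO2 (24.2% of all genes tested) and 14 without MC1 (12.4%).

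Of the 96 genes tested in the other mitochondrial lists (translation, transcription, regulators and genes of mitochondrial DNA), 2 were called. Their number was 6 with the Wald test, 1 with DESeq2's size factors, 1 with library size alone, 27 with the term, 6 without MO2 and MC3, and 0 with the effective length offset, limma, no filter, protein-coding genes only, the replicate block, both stricter thresholds, or any library left out (0 to 0); Fastkd2 and Gtpbp10 were thus lost without any 1 library and called without MO2 and MC3 together. Replicate numbers did not pair the libraries (correlation of deviations 0.62, -0.44 and -0.68 for the same numbers, 0.84 for MO2 with MC3); the replicate block called 0 of the 78 genes, with a median of -0.29.

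Single genes near 0 changed sign. Mrpl33 was -0.018 with the length offset, -0.0062 with limma at each pseudocount, -0.00070 without MO2 and MC3, and -0.055 to 0.14 with 1 library left out. Mrpl24 was 0.028 with the offset, 0.038, 0.036 and 0.033 with limma at pseudocounts of 0.1, 0.5 and 1, 0.0015 with the replicate block, 0.026 without MO2 and MC3, and -0.31 to 0.30 with 1 library left out. With 1 library left out, Mrpl52 ranged from -0.49 to 0.072, Mrpl14 from -0.32 to 0.21, Mrps30 from -0.22 to 0.14 and Mrps36 from -0.34 to 0.069. Where a group kept 2 libraries, the spread was pooled over all.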
